A study of Homo sapiens with 21 samples.

Results

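The splicing regulators of the SRSF, HNRNP and CLK families were followed in HCT-116 cells that had been given extracellular vesicles (EVs) from human serum. They are 42 genes of the 65065 in the count table, chosen by name. They comprise 11 SR proteins (SRSF1 to SRSF11), the SR-like proteins TRA2A and TRA2B, 4 CLK kinases, 2 SRPK kinases, 7 hnRNPs of the A/B/D group, 14 other hnRNPs with PTBP1 among them, and the RS-domain proteins RBM39 and LUC7L3. All 42 were matched by symbol, and all 42 had enough reads to stay among the 19556 genes tested.

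The spliceosome removes introns from pre-mRNA, and these proteins steer which splice sites it uses. SR proteins mostly bind exonic enhancers and favour inclusion of an exon, while many hnRNPs bind silencers and act in the other direction. CLK kinases in the nucleus and SRPK kinases mainly in the cytoplasm phosphorylate the serine- and arginine-rich tails of SR proteins, which sets where these proteins are found and how active they are. Many SR and hnRNP genes also limit their own mRNA by splicing in a premature stop codon that sends the transcript to nonsense-mediated decay.

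HCT-116 is a human colorectal carcinoma line, grown here in DMEM with exosome-depleted serum. EVs had been captured from serum by the GlyExo-Capture method, either from HCC patients (HCC+ EVs) or from healthy people (HCC- EVs), and poly(A) RNA of the cells was sequenced. Each kind of EV was given at 1.2, 0.24 or 0.048 mg/mL, and a blank group had 0 mg/mL, which makes 7 groups of 3 libraries and 21 libraries in all. The labels state neither whether the 3 libraries of a group were separate cultures nor how many serum donors stood behind each kind of EV, so the p-values measure the spread between these libraries.

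Depth was 31.22 M to 64.01 M counted reads per library. The first principal component of all tested genes, with 31.5% of the variance, placed the 6 libraries given 1.2 mg/mL at -94.0 to -28.7 and the other 15 at 11.9 to 36.5. Blank replicate 1 stood apart on the second component, at 63.96 against -29.8 to 24.5 for the other 20 libraries. The line's epithelial identity was present, with EPCAM at 301 ± 12.5 CPM (read counts scaled to a common library size with TMM factors) and KRT8 at 2261 ± 278 CPM in the blank group (SD, n = 3), while the intestinal marker CDX1 had 0 counts there. The summed epithelial markers, 9 of 10 of them tested, were at 3676 to 4476 CPM in the blank, 3903 to 4153 CPM with HCC+ EVs and 3290 to 3561 CPM with HCC- EVs at 1.2 mg/mL. Summed endothelial, fibroblast and leukocyte markers were low but higher in all libraries given 1.2 mg/mL than in the blank. The endothelial sum was 0.508 to 0.591 CPM in the blank, 2.58 to 3.29 CPM with HCC+ EVs and 5.70 to 7.81 CPM with HCC- EVs. For fibroblast markers it was 14.2 to 17.7, 21.3 to 30.8 and 28.6 to 34.6 CPM. For leukocyte markers, 2 or 3 of 6 of which had 0 counts in a group, it was 0.135 to 0.249, 0.531 to 1.27 and 2.03 to 2.72 CPM. These sums rested on few genes. COL1A1 held nearly all of the fibroblast sum (means of 15.46, 25.97 and 30.78 CPM), and DCN had 0 counts in the blank and with HCC+ EVs. The leukocyte rise lay in CD14 (0.1381, 0.5754 and 1.567 CPM) and LYZ, while PTPRC was not higher (0.05561, 0.02068 and 0.04483 CPM). The endothelial rise lay mainly in PECAM1 and VWF, and CDH5 had 2, 2 and 12 counts. Hepatocyte markers summed to 1.86 to 2.29, 3.08 to 3.52 and 2.19 to 3.27 CPM, so that the HCC- range overlapped the blank, and platelet markers to 0.948 to 1.87, 1.86 to 2.31 and 1.29 to 2.03 CPM, with overlap for both EVs. Erythroid markers summed to 0.0492 to 0.0749, 0.159 to 0.630 and 0.117 to 0.410 CPM. Their sum was above the blank at the lower doses as well, with 0.230 to 0.302 CPM at 0.048 mg/mL of HCC+ EVs. The nuclear retained RNA NEAT1 rose by 0.96 ± 0.09 (log2 fold change ± SE) with HCC+ EVs and by 1.71 ± 0.09 with HCC- EVs at that dose. Of the RNAs read with it as signs of RNA quality, MALAT1 (0.35 ± 0.18 and 0.31 ± 0.18) did not pass edgeR's test. Neither did MT-CO1 (0.11 ± 0.06 and -0.03 ± 0.06), and MT-ND1 was called lower only with HCC- EVs (-0.25 ± 0.06). What part these shifts have in the results below was not tested.

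The promoters of 4 members are shown because their changes lead the results: SRSF1 and HNRNPA3 (large falls with HCC- EVs), SRSF3 (the largest fall with HCC+ EVs) and HNRNPC (the largest fall with HCC+ EVs among the hnRNPs outside the A/B/D group). Each is a window of 300 bases that spans the transcription start, from RefSeq on GRCh38.p14, and lies at chr17:58007197-58007496 on the minus strand for SRSF1, chr6:36594112-36594411 on the plus strand for SRSF3, chr2:177212544-177212843 on the plus strand for HNRNPA3 and chr14:21269393-21269692 on the minus strand for HNRNPC. Capitals mark exact matches, on either strand, to the CCAAT box (CCAAT), the GC box (GGGCGG) or the E-box (CACGTG).
SRSF1: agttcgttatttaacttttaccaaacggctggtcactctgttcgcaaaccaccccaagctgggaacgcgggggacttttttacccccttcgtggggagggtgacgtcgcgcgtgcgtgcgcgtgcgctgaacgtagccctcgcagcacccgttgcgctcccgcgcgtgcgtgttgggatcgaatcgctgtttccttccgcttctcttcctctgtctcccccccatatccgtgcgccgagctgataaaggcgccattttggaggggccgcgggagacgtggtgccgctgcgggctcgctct
SRSF3: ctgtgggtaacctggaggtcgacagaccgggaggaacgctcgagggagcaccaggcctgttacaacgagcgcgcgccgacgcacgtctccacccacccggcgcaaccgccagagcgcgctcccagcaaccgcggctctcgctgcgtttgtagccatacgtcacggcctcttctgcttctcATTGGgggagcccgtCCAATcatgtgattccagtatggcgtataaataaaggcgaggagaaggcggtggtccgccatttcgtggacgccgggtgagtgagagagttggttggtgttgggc
HNRNPA3: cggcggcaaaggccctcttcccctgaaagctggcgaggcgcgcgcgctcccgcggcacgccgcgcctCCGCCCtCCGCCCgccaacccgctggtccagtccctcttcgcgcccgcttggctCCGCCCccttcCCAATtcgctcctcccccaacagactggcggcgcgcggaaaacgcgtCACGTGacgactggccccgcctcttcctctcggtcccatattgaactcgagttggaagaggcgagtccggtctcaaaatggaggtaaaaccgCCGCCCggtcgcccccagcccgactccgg
HNRNPC: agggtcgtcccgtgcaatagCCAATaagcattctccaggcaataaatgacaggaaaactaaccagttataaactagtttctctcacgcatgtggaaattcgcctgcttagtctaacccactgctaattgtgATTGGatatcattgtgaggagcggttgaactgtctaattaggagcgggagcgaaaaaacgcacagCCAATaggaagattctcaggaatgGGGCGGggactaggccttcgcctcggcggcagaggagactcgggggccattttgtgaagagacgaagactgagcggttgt
The SRSF1 window held no match, SRSF3 held CCAAT on each strand, HNRNPA3 held 4 GC boxes, 1 CCAAT box and 1 E-box, and HNRNPC held 3 CCAAT boxes and 1 GC box.

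RefSeq promoter windows were matched for 38 of the 42 members, and 6 motifs were searched on both strands. The GC box was in 26 of the 38 (68.4%), against 44.6% of all 27305 promoters in the table and 67.4% of the 12607 of tested genes. CCAAT was in 18 members (47.4%, against 35.7% of all promoters and 36.1% of those of tested genes). The E-box CACGTG was in 9 members (23.7%, against 7.43% and 9.72%), which were CLK2, CLK4, HNRNPA3, HNRNPD, HNRNPDL, HNRNPH2, HNRNPH3, HNRNPM and HNRNPUL1. The ETS motif CCGGAAG was in 5 members (13.2%, against 10.7% and 17.3%), the NRF1 motif GCATGCGC in 1 (2.63%, against 3.27% and 5.06%) and the YY1 motif AAGATGGC in 0 (against 3.03% and 4.84%). These are matches of letters in 1 window per gene. They do not show binding.

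Per kilobase of exon, so that genes can be compared, the blank group held most HNRNPA1, the core pre-mRNA packaging protein, at 473 ± 14.7 CPM per kb (SD, n = 3). HNRNPK (245 ± 17.2), HNRNPA2B1 (228 ± 8.76) and HNRNPAB (227 ± 12.2 CPM per kb) followed and lay within their SDs of each other. Among SR proteins, SRSF6 (105.5 ± 5.24) and SRSF3 (94.8 ± 10.5 CPM per kb) were highest and their SDs overlapped. The CLK kinases were near the bottom of the order, with CLK3 at 3.47 ± 0.205 and CLK4, the lowest member, at 1.44 ± 0.200 CPM per kb. Reads of the members took 1.86 ± 0.0507% of all counts in the blank group, 1.60 ± 0.0482% with HCC+ EVs at 1.2 mg/mL and 1.52 ± 0.0413% with HCC- EVs at 1.2 mg/mL (SD, n = 3). In the other 4 groups the mean share was 1.75% to 1.82%.

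With 1.2 mg/mL of HCC+ EVs, most members were at a lower CPM than in the blank group under TMM scaling. Of the 42, 29 fell and 2 rose by edgeR's quasi-likelihood test at a Benjamini-Hochberg adjusted p under 0.05. In all 31 the libraries of the 2 groups did not overlap. This adds no separate evidence, since the 31 were called from the same libraries, and no such share over all genes is given. Over all 19556 genes, 17.4% fell and 15.6% rose. Shares over all genes, here and below, were not matched for level, on which the power to call a small change depends. The median level in the blank was 255 CPM for members and 8.80 CPM for all tested genes. The median log2 fold change was -0.29 over the members and 0.01 over all tested genes. The falls lay in SR proteins (9 of 11), both TRA2 genes, 6 of 7 A/B/D hnRNPs and 10 of 14 other hnRNPs, while of the 4 CLK kinases 1 rose and 1 fell and neither SRPK kinase passed the test. Under total-count scaling fewer fell: 6 SR proteins, 1 TRA2 gene, 6 A/B/D hnRNPs, 7 other hnRNPs and RBM39. Higher were then 1 CLK kinase and 2 of the other hnRNPs. The share of all tested genes under that scaling is not given here. Since RNA came from whole cultures, fewer cells of a type and less RNA per cell cannot be told apart.

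SRSF3, an SR protein that also takes part in mRNA export, fell most (ENSG00000112081, GRCh38 chr6:36594353-36605600). Its level was 723, 589 and 713 CPM in blank replicates 1 to 3, and 334, 371 and 362 CPM with HCC+ EVs. Every treated library lay well below every blank one, and the fold change was -0.92 ± 0.06 (log2 ± SE, edgeR adjusted p = 2.22e-12). SRSF7, a close relative of SRSF3, fell by 0.64 ± 0.06 on the log2 scale, and SRSF1, the founding member of the family, by 0.58 ± 0.12. SRSF10 (-0.51 ± 0.08), SRSF2 (-0.49 ± 0.08), SRSF6 (-0.34 ± 0.05), SRSF11 (-0.28 ± 0.07), SRSF4 (-0.18 ± 0.06) and SRSF5 (-0.17 ± 0.06) were lower too. SRSF8 (0.08 ± 0.09) and SRSF9 (-0.03 ± 0.07) did not pass the test. The calls of SRSF4 and SRSF5 were the least firm. SRSF4 was at -0.14 without HCC+ replicate 1 and at -0.12 without blank replicate 2, both with an edgeR adjusted p of 0.156, and SRSF5 had adjusted p values of 0.060 to 0.195 without HCC+ replicate 1 or 3 or blank replicate 1 or 3. Under total-count scaling SRSF4, SRSF5 and SRSF11 did not pass. Summed over the 11 SR genes, the level was 2860 ± 184 CPM in the blank and 2072 ± 89.5 CPM with HCC+ EVs (SD, n = 3).

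TRA2B, an SR-like activator of exon inclusion (ENSG00000136527, chr3:185914558-185938103), had 329, 302 and 305 CPM in the blank and 221, 245 and 238 CPM with HCC+ EVs. These values did not overlap, and the fold change was -0.41 ± 0.06 (edgeR adjusted p = 1.12e-06). Its paralog TRA2A was lower by a smaller amount, -0.17 ± 0.06, a call lost without HCC+ replicate 1 or 3 or blank replicate 1 (edgeR adjusted p = 0.064 to 0.090) and at -0.05 under total-count scaling. Among the kinases, CLK2 (ENSG00000176444, chr1:155262868-155278491) had 44.5, 46.2 and 49.4 CPM in the blank and 36.2, 37.9 and 40.9 CPM with HCC+ EVs, again without overlap. It fell by 0.28 ± 0.08 (edgeR adjusted p = 0.00675), while CLK3 rose by 0.28 ± 0.07 (edgeR adjusted p = 0.00237). Neither kinase call was firm. CLK2 had an adjusted p of 0.054 without HCC+ replicate 1, and -0.16 with an adjusted p of 0.12 under total-count scaling, and CLK3 was at 0.15 with an adjusted p of 0.066 once trends with GC content and length were removed. CLK1 (-0.14 ± 0.09), CLK4 (0.11 ± 0.12), SRPK1 (-0.17 ± 0.07) and SRPK2 (-0.10 ± 0.06) did not pass.

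In the A/B/D group, HNRNPD, also known as AUF1, a protein that binds AU-rich elements of mRNAs, changed most (ENSG00000138668, chr4:82352498-82374503). It had 529, 553 and 514 CPM in the blank against 347, 412 and 385 CPM with HCC+ EVs. The lowest blank library was above the highest treated one, with a fold change of -0.48 ± 0.07 (edgeR adjusted p = 1.12e-06). HNRNPA3 (-0.47 ± 0.07), HNRNPA0 (-0.46 ± 0.06), HNRNPA2B1 (-0.35 ± 0.06), HNRNPAB (-0.35 ± 0.05) and HNRNPA1 (-0.33 ± 0.05) fell with it, and HNRNPDL (-0.13 ± 0.07) did not pass.

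HNRNPC, which binds uridine tracts of nascent transcripts, led the remaining hnRNPs (ENSG00000092199, chr14:21209136-21269494). Blank libraries had 1320, 1233 and 1254 CPM and HCC+ libraries 804, 870 and 866 CPM. No treated library came near a blank one, and the fold change was -0.58 ± 0.05 (edgeR adjusted p = 3.61e-10). HNRNPK (-0.52 ± 0.06), HNRNPH2 (-0.48 ± 0.07), HNRNPF (-0.40 ± 0.05), HNRNPR (-0.32 ± 0.06), HNRNPM (-0.30 ± 0.06), HNRNPU (-0.30 ± 0.05), HNRNPUL2 (-0.26 ± 0.07), PTBP1 (-0.25 ± 0.06), a repressor of neuronal and other exons, and HNRNPL (-0.18 ± 0.06) fell as well. HNRNPH1, a G-tract binding protein, rose, by 0.19 ± 0.05 (edgeR adjusted p = 0.00551). HNRNPH3, HNRNPLL and HNRNPUL1 did not pass. HNRNPL lost its call without HCC+ replicate 1 or 2 or blank replicate 2 (edgeR adjusted p = 0.055 to 0.185), HNRNPUL2 without HCC+ replicate 1 (adjusted p = 0.068), and both, with PTBP1, under total-count scaling. RBM39 (ENSG00000131051, chr20:35701347-35742312) had 257, 226 and 253 CPM in the blank and 193, 199 and 191 CPM with HCC+ EVs. It fell by 0.34 ± 0.06 (edgeR adjusted p = 3.41e-05) with no overlap, and LUC7L3 (-0.02 ± 0.08) did not pass.

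**Figure D1:**
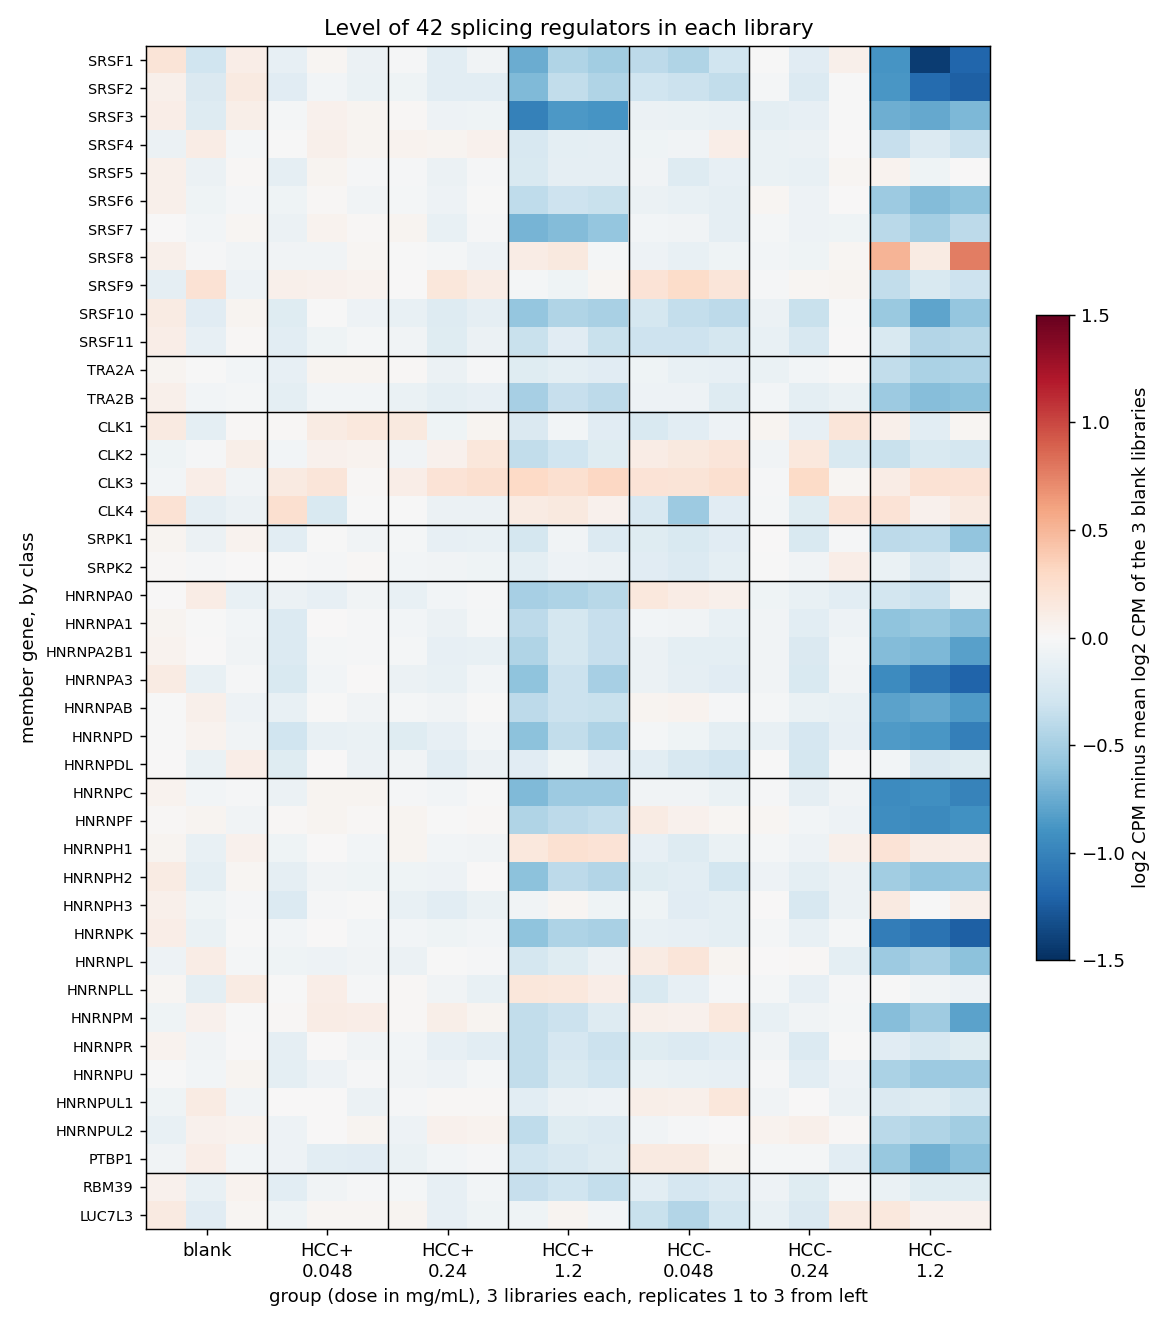
Log2 CPM of each of the 42 members (vertical axis, by role) in each of the 21 libraries (horizontal axis, by group), as the difference from the mean of the 3 blank libraries, in colour. Most members are below the blank in the 6 libraries given 1.2 mg/mL, and HNRNPH1 is above it there.

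HCC- EVs at 1.2 mg/mL also went with lower levels of most members, and most hnRNPs were lower than with HCC+ EVs, as the test between the EVs gives further on. Compared with the same blank libraries, 32 of the 42 fell and 3 rose (edgeR's quasi-likelihood test, adjusted p under 0.05), while over all tested genes 28.5% fell and 24.8% rose. The median was -0.45 over the members and 0.05 over all tested genes. The falls were in 9 of 11 SR proteins, both TRA2 genes, both SRPK kinases, 6 of 7 A/B/D hnRNPs and 11 of 14 other hnRNPs. In 33 of the 35 called members the libraries did not overlap, the exceptions being HNRNPA0 and RBM39. Here too only called members were counted, with no share over all genes beside them. This comparison and the one for HCC+ EVs share the blank libraries.

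Scaling bears on this count. TMM factors were 1.16 to 1.17 in the HCC- libraries at this dose, 1.03 to 1.06 in the HCC+ ones and 0.936 to 0.983 in all others. Under scaling to total counts, the median of all tested genes moved by 0.12 for HCC+ EVs and by 0.28 for HCC- EVs against the blank, and by -0.16 between them. The members' split for HCC- EVs against the blank was then 23 lower and 9 higher, beside 15.8% lower and 41.6% higher over all tested genes. With trends for GC content and length removed it was 28 lower and 8 higher, beside 29.3% and 26.8%. The members were poorer in GC than other tested genes, with a median of 41.3% against 49.1%.

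SRSF1 fell most among the SR proteins (ENSG00000136450, chr17:58000919-58007346). The blank libraries had 189, 135 and 178 CPM, the HCC- libraries 89.7, 61.6 and 72.3 CPM and the HCC+ libraries 98.9, 121 and 116 CPM. The 3 sets did not overlap, HCC- EVs gave the lowest values, and the fold change for HCC- EVs against the blank was -1.17 ± 0.12 (edgeR adjusted p = 1.10e-08). SRSF2 fell by 1.08 ± 0.09, SRSF3 by 0.73 ± 0.06, SRSF10 by 0.64 ± 0.08, SRSF6 by 0.60 ± 0.05, SRSF7 by 0.44 ± 0.06, SRSF11 by 0.36 ± 0.07, SRSF9 by 0.31 ± 0.07 and SRSF4 by 0.29 ± 0.06. Under total-count scaling SRSF3 was at -0.45, and SRSF11 (-0.08), SRSF9 (-0.03) and SRSF4 (-0.01) did not pass. SRSF9 was at -0.21 without blank replicate 2. SRSF5 did not pass, at 0.00 ± 0.06.

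SRSF8, a retrogene related to SRSF2, moved the other way (ENSG00000263465, chr11:95067197-95071224). It had 67.5, 63.3 and 61.7 CPM in the blank and 91.4, 69.6 and 109 CPM with HCC- EVs. All HCC- libraries were above the blank, although they were widely spread, and SRSF8 rose by 0.49 ± 0.09 (edgeR adjusted p = 3.28e-05), or by 0.77 under total-count scaling.

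TRA2B had 213, 201 and 204 CPM with HCC- EVs, below both the blank and the HCC+ libraries given above, and fell by 0.60 ± 0.06 against the blank (edgeR adjusted p = 1.49e-10). TRA2A fell by 0.44 ± 0.06. SRPK1 (ENSG00000096063, chr6:35832966-35921342) had 105, 95.9 and 106 CPM in the blank, 85.3, 98.3 and 88.6 CPM with HCC+ EVs, and 77.7, 78.3 and 67.9 CPM with HCC- EVs. The HCC- libraries lay below all others, whereas the HCC+ libraries overlapped the blank. SRPK1 fell by 0.45 ± 0.07 with HCC- EVs (edgeR adjusted p = 2.52e-06), which shrank to -0.17 under total-count scaling, as TRA2B's change did to -0.32. CLK2, at 36.9, 39.8 and 38.8 CPM with HCC- EVs, did not overlap the blank and fell by 0.28 ± 0.08 (edgeR adjusted p = 0.00414), but its sign turned under total-count scaling, as did that of SRPK2 (-0.15 ± 0.06), which also lost its call without HCC- replicate 2 or 3 or blank replicate 1 (edgeR adjusted p = 0.054 to 0.182). CLK3 rose by 0.18 ± 0.07 (edgeR adjusted p = 0.0333) and was at -0.10 with GC and length trends removed. Its adjusted p lay between 0.071 and 0.15 without HCC- replicate 2 or 3 or blank replicate 1 or 3. CLK1 and CLK4 did not pass. Total-count scaling gave 3 CLK kinases higher and 0 lower.

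HNRNPA3, an hnRNP tied to mRNA transport, had 1105, 944 and 1008 CPM in the blank, 670, 815 and 717 CPM with HCC+ EVs and 530, 481 and 441 CPM with HCC- EVs (ENSG00000170144, chr2:177212563-177223958). The 3 groups were fully apart, and the fold change for HCC- EVs against the blank was -1.07 ± 0.07 (edgeR adjusted p = 1.31e-13). HNRNPD fell by 0.91 ± 0.07, HNRNPAB by 0.81 ± 0.05, HNRNPA2B1 by 0.71 ± 0.06 and HNRNPA1 by 0.61 ± 0.05. HNRNPA0 was lower by a smaller amount (-0.23 ± 0.06), and its sign turned under total-count scaling. HNRNPDL did not pass.

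HNRNPK, a poly(C)-binding protein, had the largest fall of the remaining hnRNPs (ENSG00000165119, chr9:83968083-83980616). It had 1339, 1164 and 1238 CPM in the blank, 817, 902 and 888 CPM with HCC+ EVs and 608, 578 and 533 CPM with HCC- EVs. Each group lay apart from the next, and the change with HCC- EVs was -1.12 ± 0.06 (edgeR adjusted p = 1.10e-16). HNRNPC (-0.95 ± 0.05), HNRNPF (-0.93 ± 0.05), HNRNPM (-0.65 ± 0.06), PTBP1 (-0.64 ± 0.06), HNRNPH2 (-0.57 ± 0.07), HNRNPL (-0.55 ± 0.06), HNRNPU (-0.52 ± 0.05) and HNRNPUL2 (-0.46 ± 0.07) followed. HNRNPUL1 (-0.23 ± 0.06) and HNRNPR (-0.20 ± 0.06) were called lower, but turned sign under total-count scaling, HNRNPR also with GC and length trends removed. Summed over the hnRNP genes, the level was 14630 ± 327 CPM in the blank, 11630 ± 542 CPM with HCC+ EVs and 9556 ± 300.1 CPM with HCC- EVs (SD, n = 3).

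HNRNPH1 was the 1 hnRNP called higher with HCC- EVs under TMM scaling (ENSG00000169045, chr5:179614178-179634784). It had 859, 772 and 873 CPM in the blank, 931, 974 and 961 CPM with HCC+ EVs and 957, 904 and 891 CPM with HCC- EVs. Both sets of treated libraries were above the blank, although the gap for HCC- EVs was narrow, and the rise was 0.14 ± 0.05 (edgeR adjusted p = 0.0349). That call was lost without HCC- replicate 1 (0.11, adjusted p = 0.13) and without blank replicate 2 (0.07, adjusted p = 0.26), while total-count scaling put the change at 0.42. RBM39, with 228, 217 and 216 CPM, overlapped the blank. Its change of -0.15 ± 0.06 (edgeR adjusted p = 0.0258) did not pass without HCC- replicate 2 or 3 or blank replicate 1 or 3 (adjusted p = 0.076 to 0.11) and turned sign under total-count scaling. HNRNPH3, HNRNPLL and LUC7L3 did not pass, but HNRNPH3 (0.35 and 0.18) and HNRNPLL (0.23 and 0.15) were called higher under total-count scaling and with GC and length trends removed.

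**Figure D2:**
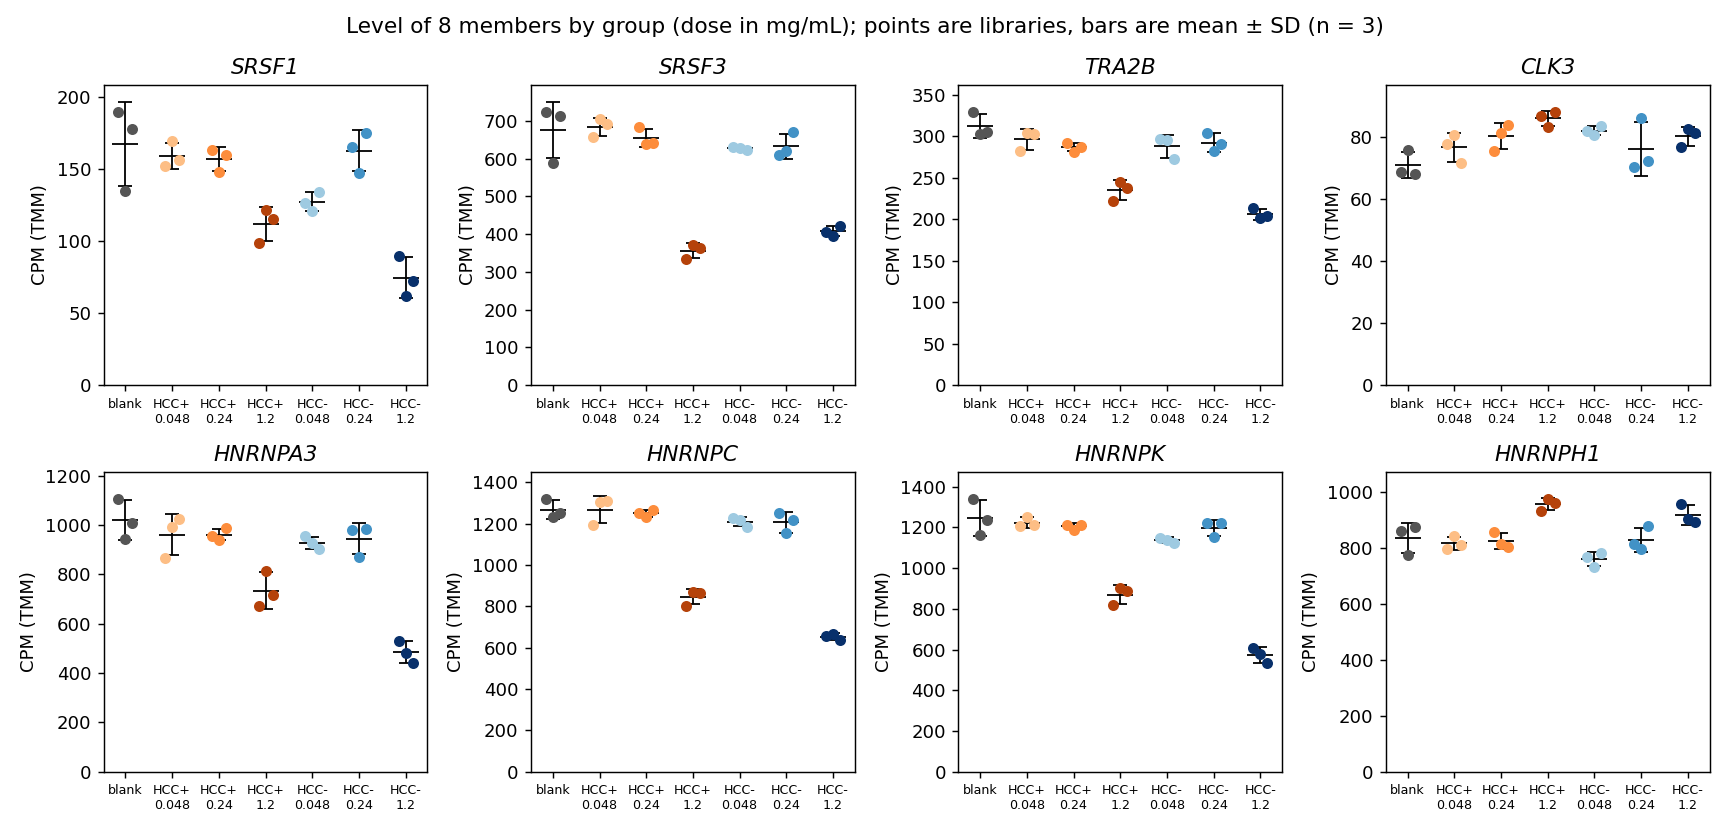
CPM of 8 members (linear vertical axes from 0) in the 7 groups (horizontal axis, dose in mg/mL), with each point 1 library and bars for the mean ± SD of 3. HNRNPK, HNRNPC and SRSF3 sit close to the blank at 0.048 and 0.24 mg/mL and below it at 1.2 mg/mL, and HNRNPH1 sits above the blank at 1.2 mg/mL.

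Set against each other at 1.2 mg/mL, the 2 kinds of EV differed in 27 of the 42 members. By edgeR's quasi-likelihood test, 21 were higher and 6 lower with HCC+ than with HCC- EVs, beside 22.6% higher and 12.7% lower over all tested genes, and the median was 0.16 over the members and 0.01 over all genes. The libraries did not overlap in 26 of the 27, SRSF8 being the exception, again a count among called members with no share over all genes. The hnRNPs went mostly one way, with 5 of 7 in the A/B/D group and 9 of 14 others higher with HCC+ EVs and only HNRNPA0 lower, whereas the SR proteins divided into 4 higher and 4 lower. Under total-count scaling 4 and 6 hnRNPs of these lists were higher and 1 and 2 lower, and with GC and length trends removed 5 and 9 were higher and 1 and 2 lower, the lower ones being HNRNPA0, HNRNPH3 and HNRNPR each time. The split of all members was 12 higher and 10 lower under total-count scaling (12% and 23.4% of all tested genes), and 21 higher and 10 lower with the trends removed (25.7% and 14.5%).

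SRSF2, an SR protein that recognises exonic enhancers (ENSG00000161547, chr17:76734115-76737374), had 160, 196 and 186 CPM with HCC+ EVs, 138, 114 and 109 CPM with HCC- EVs and 268, 218 and 278 CPM in the blank. Its HCC+ libraries lay between the other 2 sets with no overlap, and the difference between the EVs was 0.59 ± 0.08 (edgeR adjusted p = 1.85e-06). SRSF1 (0.59 ± 0.12), SRSF9 (0.28 ± 0.07) and SRSF6 (0.26 ± 0.05) differed in the same direction, SRSF9 and SRSF6 not passing under total-count scaling (0.12 and 0.10). SRSF7 (-0.21 ± 0.06), SRSF3 (-0.20 ± 0.06) and SRSF5 (-0.16 ± 0.06) were lower with HCC+ than with HCC- EVs, SRSF5 not without HCC+ replicate 1 or HCC- replicate 1 or 3 (adjusted p = 0.080 to 0.144), as was SRSF8 (-0.42 ± 0.09), at 69.3, 70.7 and 62.7 CPM with HCC+ EVs. SRSF8's difference was -0.26 without HCC- replicate 3, and that of SRSF3 did not pass without HCC+ replicate 1 (-0.15, adjusted p = 0.094) or HCC- replicate 3 (-0.17, adjusted p = 0.067).

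TRA2A (ENSG00000164548, chr7:23504780-23532041) had 133, 137 and 135 CPM with HCC+ EVs, 117, 109 and 110 CPM with HCC- EVs and 156, 151 and 148 CPM in the blank, 3 sets without overlap. The difference between the EVs was 0.27 ± 0.06 (edgeR adjusted p = 0.00037), and 0.11 with an adjusted p of 0.14 under total-count scaling. SRPK1 was higher with HCC+ EVs by 0.28 ± 0.07 (edgeR adjusted p = 0.00218), and by 0.12 with an adjusted p of 0.20 under that scaling. TRA2B differed by 0.19 ± 0.06, a call lost without replicate 2 of either EV group (adjusted p = 0.079 and 0.055). None of the 4 CLK kinases passed edgeR's test here, and 0 of them had an unadjusted p under 0.05.

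HNRNPA3 and HNRNPK showed the largest differences among the hnRNPs, 0.60 ± 0.07 (edgeR adjusted p = 1.13e-07) and 0.60 ± 0.06 (edgeR adjusted p = 5.86e-10). HNRNPF (0.53 ± 0.05), HNRNPAB (0.46 ± 0.05), PTBP1 (0.39 ± 0.06), HNRNPC (0.37 ± 0.05), HNRNPL (0.37 ± 0.06), HNRNPM (0.36 ± 0.06), HNRNPA2B1 (0.35 ± 0.06) and HNRNPA1 (0.27 ± 0.05) were higher with HCC+ EVs too. HNRNPA1 was at 0.11 with an adjusted p of 0.069 under total-count scaling. HNRNPU, HNRNPUL2 and HNRNPLL, the 3 other hnRNPs called, did not pass under that scaling either, and HNRNPD (0.27) did. HNRNPA0 went the other way (-0.24 ± 0.06), with 293, 301 and 310 CPM with HCC+ EVs against 344, 333 and 388 CPM with HCC- EVs. RBM39 was also lower with HCC+ EVs (-0.18 ± 0.06, edgeR adjusted p = 0.0143), with adjusted p values of 0.052 and 0.061 without HCC+ replicate 3 and HCC- replicate 1. A set of 15 of the 27 members kept its call and direction under every alternative setting and with each single library left out: SRSF1, SRSF2, SRSF7, SRSF8, HNRNPA0, HNRNPA2B1, HNRNPA3, HNRNPAB, HNRNPD, HNRNPC, HNRNPF, HNRNPK, HNRNPL, HNRNPM and PTBP1.

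The step from 0.24 to 1.2 mg/mL was tested for each kind of EV without the blank libraries. With HCC+ EVs, 25 of the 42 members fell and 2 rose (15.5% and 13.7% of all tested genes), and with HCC- EVs 29 fell and 3 rose (28% and 23.9% of all tested genes). The medians were -0.26 and -0.39, against 0.01 and 0.04 over all tested genes. For HCC- EVs the split was 21 lower and 13 higher under total-count scaling (15.9% and 39.6% of all tested genes) and 26 lower and 8 higher with GC and length trends removed (29.2% and 26%). SRSF3 had the largest fall with HCC+ EVs (-0.88 ± 0.06), followed by SRSF7 (-0.62 ± 0.06) and HNRNPC (-0.56 ± 0.05). With HCC- EVs the largest were SRSF1 (-1.12 ± 0.12), HNRNPK (-1.06 ± 0.06), SRSF2 (-0.996 ± 0.085) and HNRNPA3 (-0.96 ± 0.07). HNRNPH1 rose in both (0.21 ± 0.05 and 0.15 ± 0.05), and SRSF8 (0.52 ± 0.09) and HNRNPH3 (0.17 ± 0.06) rose with HCC- EVs. HNRNPH1's rise with HCC- EVs was lost without HCC- replicate 1 at 1.2 mg/mL or replicate 1 or 2 at 0.24 mg/mL (adjusted p = 0.092 to 0.125), and that of HNRNPH3 without replicate 1 or 3 at 1.2 mg/mL or replicate 2 or 3 at 0.24 mg/mL (adjusted p = 0.054 to 0.225).

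These comparisons share no library. In both, 22 members were lower, which is 88% of the HCC+ list and 75.9% of the HCC- list, 1 was higher, and 0 were called in opposite directions. Over all tested genes, 2576 were lower in both, which is 85.2% of the HCC+ list and 47.1% of the HCC- list, 1873 were higher in both and 113 were called in opposite directions. Across the 42 members the 2 sets of fold changes had a Pearson r of 0.740 and a Spearman rho of 0.791, and over all 19556 genes r was 0.558. These are descriptions across genes, which are not independent replicates.

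**Figure D3:**
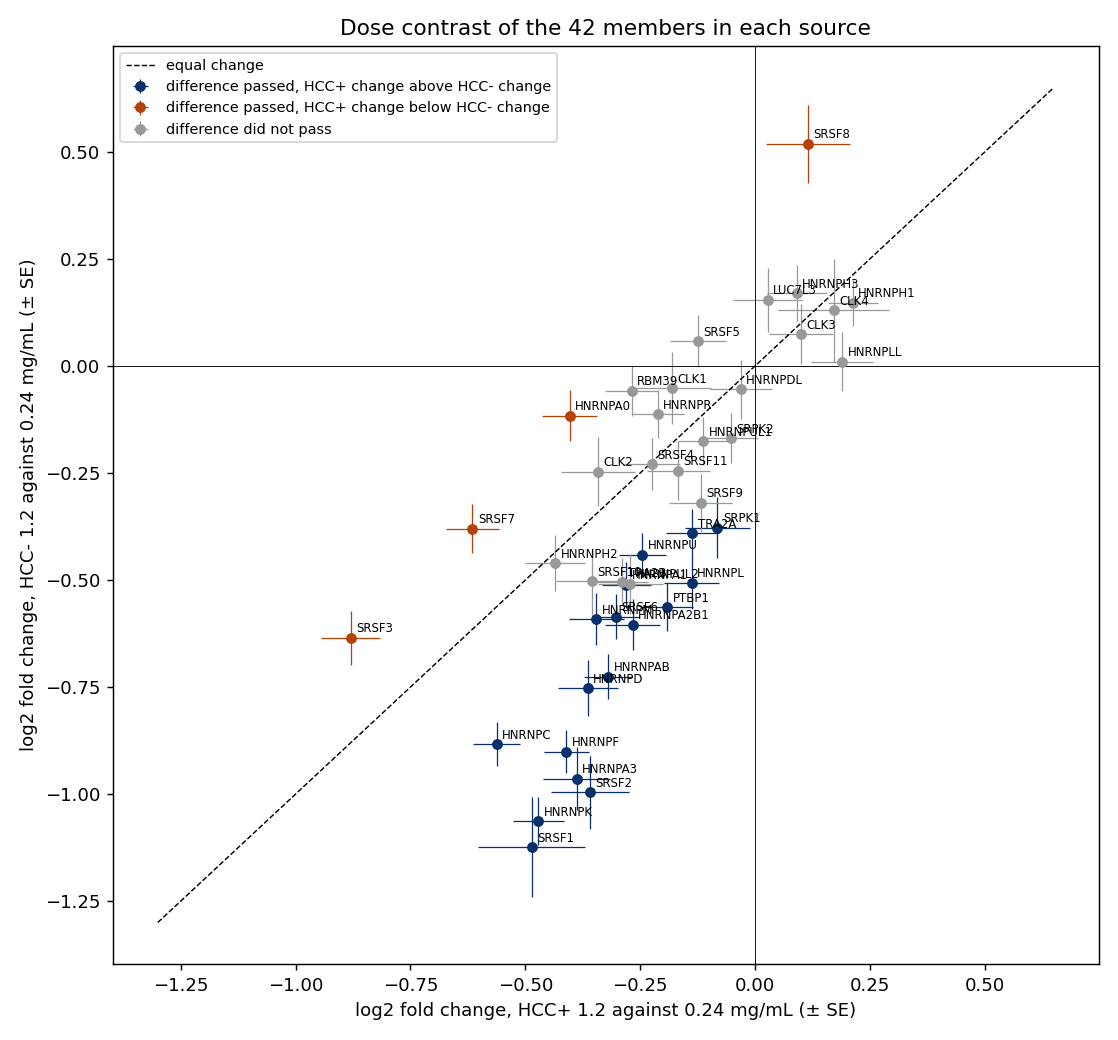
Log2 fold change from 0.24 to 1.2 mg/mL with HCC- EVs (vertical axis) against that with HCC+ EVs (horizontal axis). Each point is 1 of the 42 members, with error bars for the SE, and the dashed line marks equal change. SRSF1, SRSF2, HNRNPA3 and HNRNPK lie below the line (larger falls with HCC- EVs), and SRSF3 and SRSF7 lie above it.

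The dose steps were also tested against each other, as the HCC+ step minus the HCC- step. It differed in 21 of the 42 members: 17 were positive, meaning a smaller fall with HCC+ EVs, and 4 negative (15.1% and 6.26% of all tested genes). The median was 0.16 over the members and 0.03 over all tested genes. The split was 8 positive and 7 negative under total-count scaling (7.36% and 12.1% of all tested genes) and 17 and 9 with GC and length trends removed (19.1% and 8.01%). The median of all tested genes shifted by 0.11 and 0.26 in the HCC+ and HCC- steps under total-count scaling, and by -0.15 in their difference. The 7 members SRSF1, SRSF2, HNRNPA3, HNRNPAB, HNRNPF, HNRNPK and PTBP1 passed in the same direction under every alternative and with each library left out.

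At the lower doses few members differed from the blank. In the comparisons with 0.24 mg/mL of HCC+ EVs, 0.24 mg/mL of HCC- EVs and 0.048 mg/mL of HCC+ EVs, edgeR called 0 of the 42, beside 0.00511%, 0% and 0% of all tested genes. At an unadjusted p under 0.05 there were 2, 1 and 2 members, and DESeq2 called 0 in each. Log2 fold changes of the members ranged from -0.15 to 0.18, from -0.16 to 0.10 and from -0.17 to 0.11. SRSF3, for example, had 675 ± 74.6 CPM in the blank, 684 ± 24.6 and 655 ± 24.0 CPM at 0.048 and 0.24 mg/mL of HCC+ EVs, and 356 ± 19.6 CPM at 1.2 mg/mL (SD, n = 3). HNRNPK had 1247 ± 87.6 CPM in the blank, 1137 ± 13.0 and 1197 ± 40.4 CPM at the same doses of HCC- EVs, and 573 ± 37.6 CPM at 1.2 mg/mL. Neither gene was called against the blank at these doses, and the low values appeared at 1.2 mg/mL.

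HCC- EVs at 0.048 mg/mL differed from the blank in 12 members by edgeR's test, 10 lower and 2 higher, beside 8.16% lower and 8.28% higher over all tested genes. LUC7L3, a protein related to the U1 component Luc7 (-0.35 ± 0.08, edgeR adjusted p = 0.00735), SRSF11 (-0.30 ± 0.07), SRSF10 (-0.34 ± 0.08), SRSF2 (-0.34 ± 0.08) and SRSF1 (-0.39 ± 0.12) were lower, together with RBM39, HNRNPDL, HNRNPR, HNRNPH2 and SRPK2. SRSF9 (0.21 ± 0.07) and CLK3 (0.21 ± 0.07) were higher. These calls depended on single libraries. Without blank replicate 1, 2 or 3, 0, 19 and 0 members were lower and 0, 6 and 0 higher, and without HCC- replicate 1, 2 or 3 at 0.048 mg/mL, 6, 4 and 5 were lower and 0, 0 and 1 higher. With GC and length trends removed, 0 were lower and 1 higher. At 0.24 mg/mL the same EVs gave no call against the blank. None of the 12 held under every alternative.

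Between the EVs, edgeR called 0 members at 0.24 mg/mL (0% of all tested genes, 0 at an unadjusted p under 0.05, 0 by DESeq2). At 0.048 mg/mL LUC7L3 was higher with HCC+ EVs (0.35 ± 0.08, edgeR adjusted p = 0.0251) and PTBP1 lower (-0.23 ± 0.06, edgeR adjusted p = 0.0284), beside 3.54% of all tested genes in either direction. From 0.048 to 0.24 mg/mL, HCC+ EVs gave 0 calls (0% of all tested genes, 0 at an unadjusted p under 0.05, 0 by DESeq2). In HCC- EVs LUC7L3 (0.29 ± 0.08) and SRPK2 (0.19 ± 0.06) rose and HNRNPA0 (-0.22 ± 0.06) and PTBP1 (-0.18 ± 0.06) fell over that step, 2 in each direction, beside 3.86% and 4.86% of all tested genes. None of these small-dose calls held under every alternative.

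Ratios of 2 members within a library do not depend on scaling. They were not corrected for trends with GC content and length, which can differ between the 2 genes. HNRNPH1 had 36.3% GC and 9.48 kb of exon, and HNRNPF 48.0% and 3.25 kb. HNRNPH1 and HNRNPF, which bind like G-tracts, had a count ratio of 1.47 ± 0.134 in the blank (SD, n = 3, range 1.32 to 1.59), 2.21 ± 0.0452 with HCC+ EVs (2.16 to 2.24) and 3.07 ± 0.137 with HCC- EVs (2.93 to 3.20) at 1.2 mg/mL. The 3 ranges did not overlap, and the other 4 groups had means of 1.27 to 1.49. The ratio of SRSF3 to SRSF1 was 4.07 ± 0.286 in the blank (3.81 to 4.38), 3.19 ± 0.166 with HCC+ EVs (3.05 to 3.37) and 5.59 ± 0.964 with HCC- EVs (4.53 to 6.41). It was thus below the blank range in all HCC+ libraries and above it in all HCC- libraries at that dose. With HCC- EVs at 0.048 mg/mL it was above the blank range too (4.64 to 5.17), and the other 3 groups had means of 3.90 to 4.30. SRSF1 to HNRNPA1, an SR protein and an hnRNP known to oppose each other at shared exons, had a ratio of 0.0695 ± 0.0117 in the blank, 0.0585 ± 0.00389 with HCC+ EVs and 0.0472 ± 0.00937 with HCC- EVs. The HCC+ range of 0.05405 to 0.061 and the HCC- range of 0.0380 to 0.0567 both overlapped the blank range of 0.0560 to 0.0763. At 0.048 mg/mL of HCC- EVs the ratio was 0.0556 ± 0.00430 (0.0521 to 0.0604), and the other 3 groups had means of 0.0676 to 0.0721. A ratio shows an unequal change, not which gene changed.

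**Figure D4:**
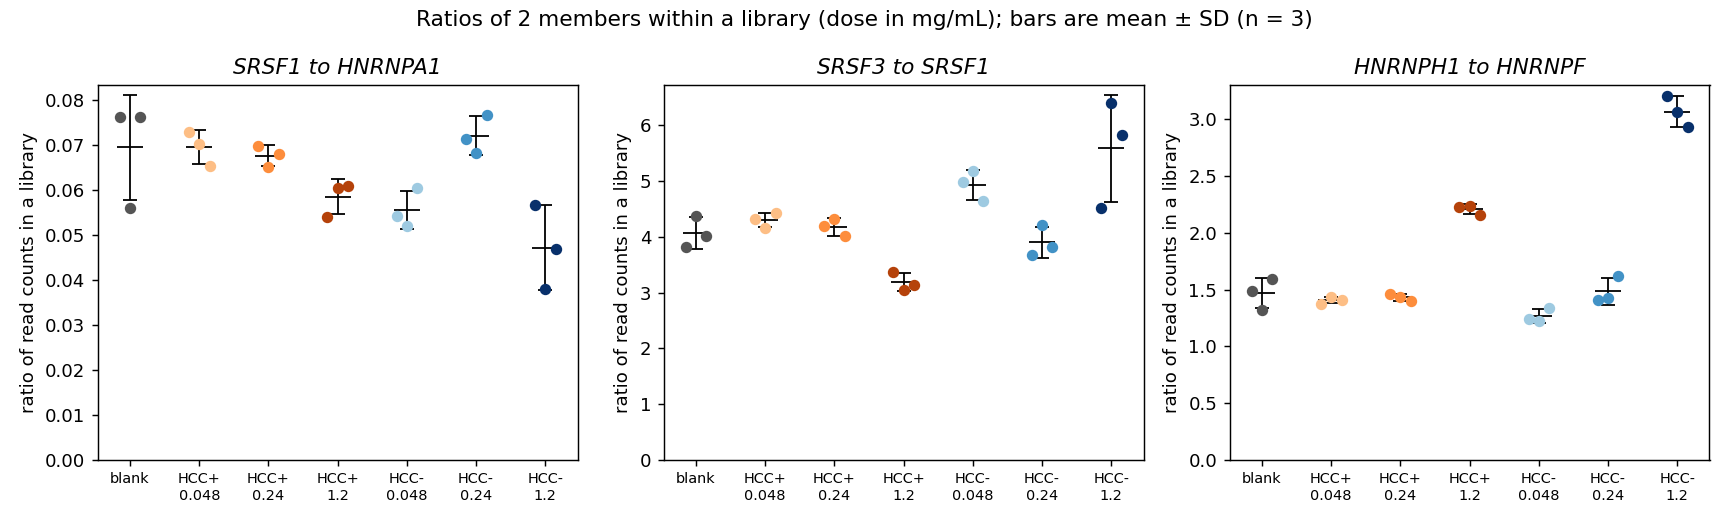
Ratio of read counts of 2 members within a library (vertical axes from 0) in the 7 groups (horizontal axis, dose in mg/mL), with each point 1 library and bars for the mean ± SD of 3. The HNRNPH1 to HNRNPF ratio is 1.47 in the blank, 2.21 with HCC+ EVs and 3.07 with HCC- EVs at 1.2 mg/mL.

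Other genes of the splicing machinery were read from lists by complex. Of the 14 Sm and LSm proteins, which form rings on snRNAs, 13 fell with HCC+ EVs and 14 with HCC- EVs at 1.2 mg/mL against the blank, 0 rose, and 11 were higher with HCC+ than with HCC- EVs (edgeR). Their medians were -0.48 and -0.84, and -0.36 and -0.56 under total-count scaling, where 13 and 12 fell and 6 were higher and 1 lower with HCC+ than with HCC- EVs. LSM4 fell by 0.74 ± 0.06 with HCC+ EVs and by 1.24 ± 0.06 with HCC- EVs, and SNRPD2 by 0.56 ± 0.07 and by 0.89 ± 0.07. In the same order, SNRPD3 fell by 0.40 ± 0.08 and by 1.26 ± 0.09, and LSM6 by 0.46 ± 0.09 and by 1.16 ± 0.09. Of 18 U2 snRNP and branch site proteins, 14 and 15 fell and 0 rose (medians -0.32 and -0.40), with SF3B6 at -0.62 ± 0.07 and -0.999 ± 0.067 and PHF5A at -0.66 ± 0.07 and -0.83 ± 0.07. Under total-count scaling 11 and 8 of them fell and 2 and 3 rose. With GC and length trends removed, 16 and 15 of them fell and 0 rose. Of the Sm and LSm proteins, 12 and 13 then fell and 0 rose.

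Of 15 tri-snRNP proteins, 13 and 12 fell and 0 rose, PPIH by 0.69 ± 0.09 and by 0.94 ± 0.09. Of 9 U1 proteins, 4 and 7 fell and 0 rose, and of 20 proteins of the catalytic steps 8 and 14 fell while 1 and 1 rose. Total-count scaling left fewer of these lower: 6 and 8 tri-snRNP proteins, 2 and 2 U1 proteins, and 7 and 5 catalytic proteins, with 5 of the catalytic proteins higher with HCC- EVs. With GC and length trends removed, 12 and 13 tri-snRNP proteins, 4 and 6 U1 proteins and 9 and 8 catalytic proteins were lower. Of the catalytic proteins, 2 were then higher with HCC- EVs.

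Regulators outside the 3 families moved less evenly. Of 29 other alternative splicing regulators that were tested, 8 fell and 3 rose with HCC+ EVs, and 17 fell and 5 rose with HCC- EVs (medians -0.14 and -0.21). SFPQ, a paraspeckle protein, fell by 0.53 ± 0.05 with HCC+ and by 0.49 ± 0.05 with HCC- EVs, SYNCRIP by 0.51 ± 0.08 and by 0.91 ± 0.08, and ESRP1, a regulator of epithelial exons, by 0.82 ± 0.07 with HCC- EVs. Of 19 SR-related proteins and kinases, 9 fell and 1 rose with HCC+ EVs and 8 fell and 5 rose with HCC- EVs, RNPS1 falling by 0.42 ± 0.06 and by 0.51 ± 0.06 and CDK12 rising by 0.40 ± 0.06 with HCC- EVs. For HCC- EVs both lists turned under total-count scaling, to 8 lower and 12 higher (median 0.07) and to 3 lower and 11 higher (median 0.22). With HCC+ EVs they then had 3 lower and 5 higher (median -0.02), and 4 lower and 2 higher (median -0.03). Removal of GC and length trends did not turn them. The other regulators then had 16 lower and 5 higher with HCC- EVs (median -0.18) and 11 and 3 with HCC+ EVs (median -0.12). The SR-related list had 11 lower and 5 higher with HCC- EVs (median -0.17) and 11 and 1 with HCC+ EVs (median -0.17). Whether the lists differ from each other or from the members was not tested.

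**Figure D5:**
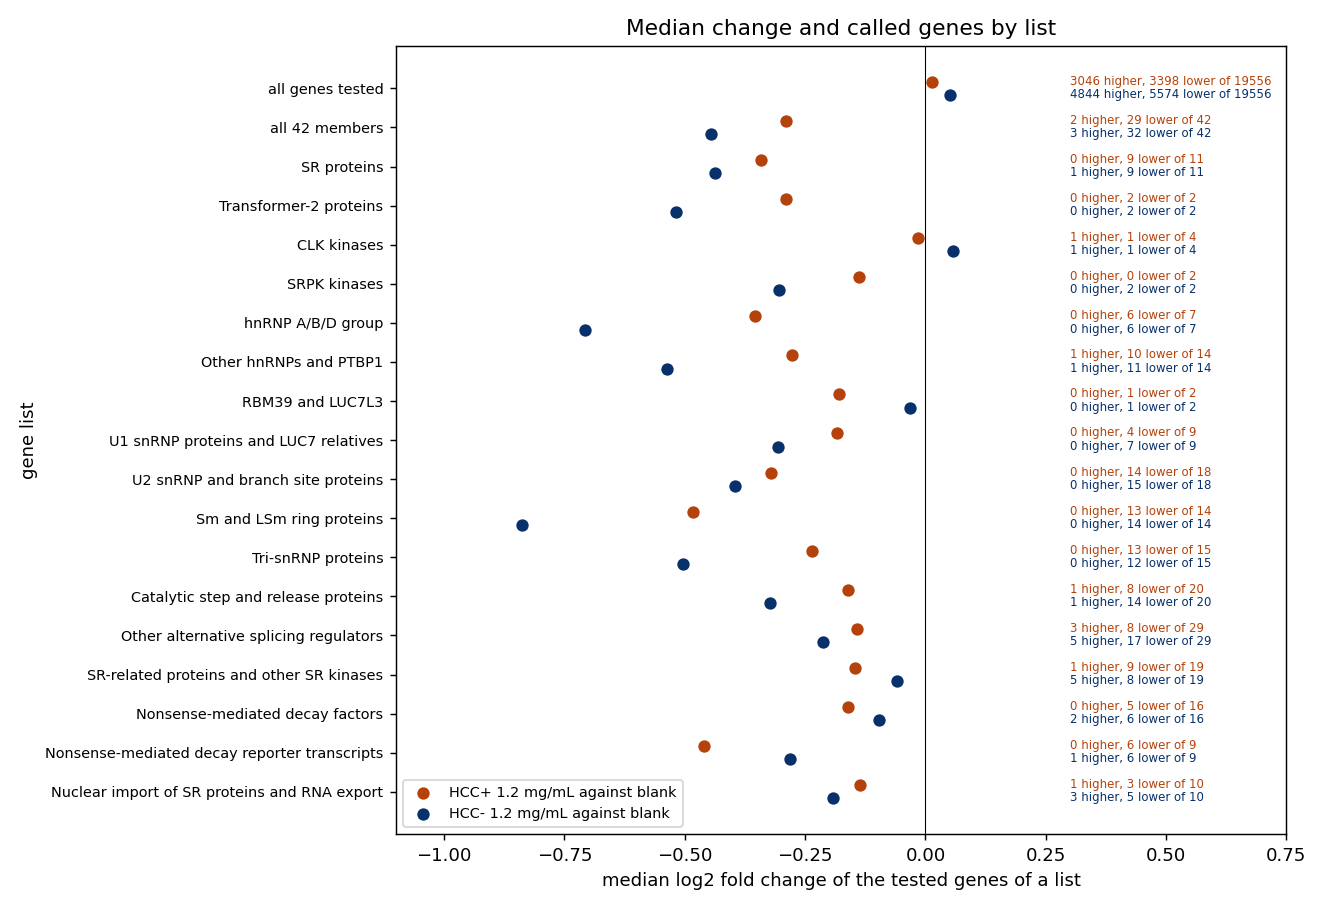
Median log2 fold change at 1.2 mg/mL against the blank (horizontal axis) of each gene list (vertical axis) with HCC+ EVs and with HCC- EVs, with the counts of genes called higher and lower printed at the right. The Sm and LSm proteins have the lowest medians, -0.48 and -0.84, beside 0.01 and 0.05 for all tested genes.

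The members share features that their choice by name did not use. In the annotation, 34 of the 42 (81.0%) had at least 1 transcript marked as a target of nonsense-mediated decay, against 41.4% of the 14344 tested protein-coding genes, and all 11 SR genes had one. At least 1 retained-intron transcript was annotated for 32 of them (76.2%, against 55.9%). The gene counts used here pool such transcripts with the coding ones, so changes between isoforms were not measured. The members were longer (median exon length 6.20 kb against 3.99 kb) and more highly expressed (median 255 CPM against 8.80 CPM in the blank) than all tested genes. Like-named pseudogenes and copies held at most 1.02% of a member's own counts (HNRNPC). How reads that match several copies were counted is not given in the sources used here. Exons of SRSF9 overlapped GATC on the opposite strand over 46.7% of their length and those of SRSF2 overlapped MFSD11 over 36.7%, and as the strand setting of the counting is not given in the sources used here, part of these reads may belong to the other gene.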

How the data were processed

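The deposited table gives whole-number read counts per gene for the 21 libraries. Per the submitters' processing notes, reads were trimmed with cutadapt 3.4, aligned with HISAT2 2.2.1 to GRCh38 and counted with featureCounts 2.0.1. The annotation release, the strand setting and the treatment of reads that map to several places were not given in the sources used here. From these counts, edgeR 4.0.16 (R 4.3.3) fitted 1 model with 7 group means to all 21 libraries (TMM scaling, filterByExpr, robust quasi-likelihood test, 14 residual degrees of freedom, common biological coefficient of variation 0.0885). P-values are 2-sided and Benjamini-Hochberg adjusted over 19556 genes, with a threshold of 0.05. The SE of a log2 fold change is its size divided by the root of the test's F. Levels are CPM computed from the deposited counts with TMM factors.

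The members and all lists were chosen with earlier results of these data known. Values per library are given for the called member with the largest change of each role in the 1.2 mg/mL comparisons, and other called members are given by fold change. In the other comparisons some or all of the called members are named. Genes named from other lists are a selection from each list and not strictly those with the smallest p. HNRNPH1, SRSF8, the HNRNPA0 levels and the ratios were added after their values were seen. Alternatives were total-count and RLE scaling, no low-count filter, DESeq2 1.42.0, a replicate block, fits of the compared groups alone, removal of trends with GC content and length (GENCODE v29 transcripts) and leaving out each library. Scripts were tested on simulated data. Depth limits low genes, but all members had enough reads to be tested.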

Additional observations from a re-analysis of the deposited data

Results flagged for a closer look

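For 21 members a test of the difference itself (edgeR, HCC+ step from 0.24 to 1.2 mg/mL minus the HCC- step, 3 libraries a group) passed at an adjusted p under 0.05, from 1.76e-06 for HNRNPK to 0.0497 for HNRNPU. Positive log2 values mean a smaller fall, or a larger rise, with HCC+ EVs. Among SR and SR-like proteins these were SRSF1 (0.64), SRSF2 (0.64), SRSF6 (0.28) and TRA2A (0.25), and SRPK1 was the kinase among them (0.30). In the hnRNP A/B/D group they were HNRNPA3 (0.58), HNRNPAB (0.41), HNRNPD (0.39), HNRNPA2B1 (0.34) and HNRNPA1 (0.23). The other hnRNPs were HNRNPK (0.59), HNRNPF (0.49), PTBP1 (0.37), HNRNPL (0.37), HNRNPC (0.32), HNRNPM (0.25) and HNRNPU (0.20). Negative values were found for SRSF8 (-0.40), HNRNPA0 (-0.29), SRSF3 (-0.25) and SRSF7 (-0.24). With single libraries left out, the call was lost at least once for SRSF3, SRSF7, SRSF8, TRA2A, SRPK1, HNRNPA0, HNRNPA1, HNRNPM and HNRNPU, with adjusted p values up to 0.213 (HNRNPU without HCC+ replicate 2 at 1.2 mg/mL). SRSF8 was at -0.25 without HCC- replicate 3 at 1.2 mg/mL.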

How the results depend on the processing

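Counts of members called are given as higher and lower. Without single libraries the main 1.2 mg/mL comparisons gave 2 to 3 higher and 23 to 29 lower (HCC+ EVs against blank), 2 and 30 to 33 (HCC- EVs against blank) and 18 to 21 and 4 to 6 (HCC+ against HCC-). Their call and direction held in all alternatives for 22 of 31, 24 of 35 and 15 of 27 members. With HCC- EVs against the blank, the number higher was 9 under total-count scaling, 1 without the filter, 8 with GC and length trends removed and 1 with only the compared groups. Between the EVs at 1.2 mg/mL it was 12 higher and 10 lower under total-count scaling, and 10 lower without the trends. From 0.24 to 1.2 mg/mL, HCC+ EVs gave 4 higher under total-count scaling and 1 without the filter (1 to 2 without single libraries), and HCC- EVs gave 13, 1 and, without the trends, 8 (1 to 3). The difference of these steps gave 8 and 7 under total-count scaling, 2 negative without the filter and 9 negative without the trends (12 to 19 and 0 to 4 without single libraries, 0 without HCC- replicate 3 at 1.2 mg/mL). With 0.048 mg/mL of HCC- EVs against the blank, 1 was higher under total-count scaling, without the filter and without the trends, 0 with only the compared groups, and 0, 6 and 16 were lower without the trends, with only the compared groups and by DESeq2 (0 to 6 and 0 to 19). Between the EVs at 0.048 mg/mL, the number higher was 3 under total-count scaling, 6 without the filter, 2 with the replicate block, 0 without the trends, 9 with only the compared groups and 6 by DESeq2, and the number lower was 2 with RLE scaling, 2 with the replicate block, 0, 5 and 4 (0 to 1 each). From 0.048 to 0.24 mg/mL of HCC- EVs it was 6 and 1 under total-count scaling, 0 and 4 without the trends, 6 higher with only the compared groups, and 5 and 7 by DESeq2 (0 to 9 and 0 to 5, with 9 and 5 without HCC- replicate 2 at 0.24 mg/mL). Signs turned under total-count scaling with HCC- EVs against the blank for CLK2 (0.003), SRPK2 (0.13), HNRNPA0 (0.056), HNRNPR (0.085), HNRNPUL1 (0.056) and RBM39 (0.13), and against 0.24 mg/mL for SRSF4 (0.031), SRSF11 (0.016), CLK2 (0.014), SRPK2 (0.092) and HNRNPUL1 (0.085). Without the trends they turned for CLK3 (-0.10) and HNRNPR (0.018) at 1.2 mg/mL, SRPK2 (0.0052) and HNRNPR (0.12) at 0.048 mg/mL, and PTBP1 (0.030) from 0.048 to 0.24 mg/mL. The cause was not tested. The labels give replicate numbers but no pairing: 0 of 63 same-numbered pairs had a correlation over 0.1, and 9 of 21 libraries correlated best with their own number. The replicate block gave 3 and 3 from 0.048 to 0.24 mg/mL of HCC- EVs and 16 and 4 for the difference of steps.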

Other observations

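Genes of nonsense-mediated decay, the pathway to which many SR transcripts with a premature stop are sent, were not described above. Of 16 factors, 5 fell and 0 rose with HCC+ EVs and 6 fell and 2 rose with HCC- EVs at 1.2 mg/mL against the blank (edgeR, medians -0.16 and -0.10), and under total-count scaling 4 fell and 1 rose with HCC+ EVs and 4 fell and 8 rose with HCC- EVs. With GC and length trends removed, 10 fell and 0 rose with HCC+ EVs, and 7 fell and 1 rose with HCC- EVs. Proteins of the exon junction complex had the largest falls of the list: MAGOHB fell by 1.06 ± 0.10 and by 1.41 ± 0.10 (log2 ± SE), MAGOH by 0.78 ± 0.09 and by 0.83 ± 0.09, RBM8A by 0.37 ± 0.06 and by 0.52 ± 0.06, and EIF4A3 by 0.29 ± 0.06 and by 0.47 ± 0.06. CASC3, another protein of that complex, singled out after its values were seen, was at -0.01 ± 0.06 with HCC+ EVs and rose by 0.19 ± 0.06 with HCC- EVs (edgeR adjusted p = 0.00565). UPF1 was the other factor that rose with HCC- EVs (0.25 ± 0.06, edgeR adjusted p = 0.00143). It did not pass with HCC+ EVs (-0.14 ± 0.06) and was lower with HCC+ than with HCC- EVs (-0.39 ± 0.06, edgeR adjusted p = 1.31e-05). Of 9 transcripts known as targets of the pathway, 6 fell with either kind of EV, 0 rose with HCC+ and 1 with HCC- EVs, and under total-count scaling 6 fell and 0 rose with HCC+ EVs and 1 fell and 2 rose with HCC- EVs. With GC and length trends removed, 6 fell and 0 rose with HCC+ EVs, and 5 fell and 2 rose with HCC- EVs. RBM3, a cold-inducible RNA-binding protein, fell by 1.04 ± 0.07 and by 1.70 ± 0.07, and ATF4, a stress response factor, by 0.81 ± 0.07 and by 0.38 ± 0.07.

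Of 10 genes for the import of SR proteins and the export of mRNA, 3 fell and 1 rose with HCC+ EVs, and 5 fell and 3 rose with HCC- EVs (1 and 1, and 2 and 3, under total-count scaling). With GC and length trends removed, 3 fell and 0 rose with HCC+ EVs, and 5 fell and 2 rose with HCC- EVs. ALYREF, an export adaptor, fell by 0.26 ± 0.07 with HCC+ EVs and by 0.73 ± 0.07 with HCC- EVs. NXF1, the export receptor, rose by 0.17 ± 0.06 and by 0.41 ± 0.06. TNPO3, which carries SR proteins into the nucleus, fell by 0.21 ± 0.05 and by 0.31 ± 0.05, and TNPO2 by 0.37 ± 0.07 and by 0.29 ± 0.07.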
